A study of Homo sapiens with 6 samples.

Results

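Transcripts of 8 chemokines and of the atypical chemokine receptor ACKR3 were followed in human dermal fibroblasts that carried an inducible MyoD and in fibroblasts that did not. The chemokines were CXCL1, CXCL2, CXCL3, CXCL5, CXCL6, CXCL8, CXCL12 and CCL2. These 9 genes were listed by name out of 23540 genes with a symbol, and ACKR3 was chosen by its counts in these libraries, for being much lower with MyoD. Their 13 RefSeq transcript rows, of 40710 in the count table, were summed per gene. The change of ACKR3 is therefore described without a test.

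The series measured polyadenylated RNA of cultured primary human dermal fibroblasts, with 2 libraries in each of 3 groups. The VP64-MyoD cells carried a Tet-ON lentivirus for mouse MyoD with VP64, a strong transcriptional activation domain, fused to its N-terminus. The WT-MyoD cells carried the same vector with mouse wild-type MyoD, the transcription factor that can turn fibroblasts towards muscle. The untreated cells expressed no MyoD transgene, according to their label. In both MyoD groups the red fluorescent protein dsRed-Express2 was made from the same transcript, transduced cells were selected with puromycin and grown to confluence, and doxycycline at 3 µg/mL was given until harvest on day 10. Whether untreated cells also received a vector, puromycin or doxycycline, and on which day they were harvested, is not in the labels, so any effect of vector, selection or drug cannot be told apart from that of MyoD. A single fibroblast line was used, so p-values reflect variation among its cultures and not among donors.

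Chemokines are small secreted proteins that guide migrating cells along gradients through G protein-coupled receptors. CXCL1, CXCL2, CXCL3, CXCL5, CXCL6 and CXCL8 share a glutamate-leucine-arginine (ELR) motif and draw neutrophils through CXCR1 and CXCR2. CCL2 draws monocytes through CCR2, and fibroblasts make it with the ELR ligands when interleukin-1 or tumour necrosis factor activates NF-κB. CXCL12 is made by resting stromal cells and signals through CXCR4, while ACKR3 binds CXCL12, takes it into the cell for degradation and signals through arrestin rather than G proteins.

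The promoters of the ELR ligands are shown because these genes form 1 family with shared upstream sequence, and CXCL12 is shown as the member without it. RefSeq's table for GRCh38.p14 matched 7 of the 9 members. CCL2 and ACKR3 had no entry there. Each line gives the 120 bases before the annotated start, read 5′ to 3′ on the gene's strand, and capitals mark the letters GGAATTTCC, which occur in many NF-κB sites. CXCL1 is at chr4:73869273-73869392 (plus strand), CXCL2 at chr4:74099196-74099315 (minus strand), CXCL3 at chr4:74038690-74038809 (minus strand), CXCL5 at chr4:73998678-73998797 (minus strand), CXCL6 at chr4:73836558-73836677 (plus strand), CXCL8 at chr4:73740449-73740568 (plus strand) and CXCL12 at chr10:44385098-44385217 (minus strand).
CXCL1: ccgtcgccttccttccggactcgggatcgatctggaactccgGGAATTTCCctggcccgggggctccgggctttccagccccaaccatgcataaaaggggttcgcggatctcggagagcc
CXCL2: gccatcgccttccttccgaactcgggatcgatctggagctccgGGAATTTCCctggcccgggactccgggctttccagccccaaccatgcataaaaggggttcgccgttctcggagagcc
CXCL3: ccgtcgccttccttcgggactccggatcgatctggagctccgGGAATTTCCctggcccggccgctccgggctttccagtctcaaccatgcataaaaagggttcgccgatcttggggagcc
CXCL5: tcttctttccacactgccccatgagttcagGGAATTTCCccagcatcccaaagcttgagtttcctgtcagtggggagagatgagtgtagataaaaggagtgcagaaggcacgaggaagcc
CXCL6: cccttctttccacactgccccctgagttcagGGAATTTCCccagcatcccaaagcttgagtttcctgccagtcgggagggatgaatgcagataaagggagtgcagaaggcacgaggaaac
CXCL8: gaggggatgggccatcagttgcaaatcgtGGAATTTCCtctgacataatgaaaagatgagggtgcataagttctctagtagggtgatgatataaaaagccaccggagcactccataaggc
CXCL12: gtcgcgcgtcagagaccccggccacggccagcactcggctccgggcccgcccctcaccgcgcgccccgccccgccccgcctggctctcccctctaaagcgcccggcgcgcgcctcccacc
GGAATTTCC, searched on both strands in the 250 bases before the start, was found in the promoters of all 6 ELR ligands, where it began between 91 and 77 bases upstream. It was not found in that of CXCL12, and 145 of 35116 promoters in the table (0.413%) held it. The search word was chosen after the sequences were seen. CANNTG, the general form of the E-box that MyoD binds, was found once each in the promoters of CXCL2 and CXCL8 and in none of the other 5, against 61.8% of all promoters, and its form CAGCTG was found in none of the 7, against 14% of all.

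Library totals lay between 40997586 and 53804224 counts, and every value was even, so that 1 read pair counted as 2. The mouse MyoD transgene held 5372 and 5056 counts in the VP64-MyoD libraries and 42900 and 41736 in the WT-MyoD libraries. In the untreated libraries it held 254 and 46. The MyoD groups thus differed in transgene transcript level as well as in the form of MyoD, and form and level cannot be told apart. The summed level of 6 muscle differentiation markers was 3621 to 4198 CPM (counts relative to library size, scaled by TMM) with VP64-MyoD, 383 to 468 CPM with WT-MyoD and 15.5 to 15.8 CPM in untreated cells. The 9 fibroblast markers, among them COL1A1 and VIM, were detected in every library. Of the 15778 genes tested with edgeR, 5210 were higher and 4739 lower with VP64-MyoD than in untreated cells, and 4057 were higher and 3498 lower with WT-MyoD. When scaled by library totals alone, these splits were 6787 to 3125 and 5802 to 1876. Between VP64-MyoD and WT-MyoD, 4479 genes were higher and 4446 lower.

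Compared with untreated cells, VP64-MyoD cells had less CXCL1, CXCL2, CXCL6 and CXCL12 and more CCL2. WT-MyoD cells had more CXCL1 and CXCL6 and less CXCL12. The 2 forms of MyoD thus stood on opposite sides of the untreated level for CXCL1 and CXCL6, and on the same side for CXCL12. In these bulk samples, fewer cells of a type and less RNA per cell cannot be told apart. Of the 9 members, 7 passed the filter on low counts and 5 were tested, with ACKR3 and CXCL8 left untested. With VP64-MyoD against untreated cells, 1 tested member was higher (33% of all genes) and 4 were lower (30% of all genes). With WT-MyoD against untreated cells, 2 were higher (25.7% of all genes) and 1 was lower (22.2% of all genes). VP64-MyoD set against WT-MyoD had 1 higher (28.4% of all genes) and 3 lower (28.2% of all genes). Over all 9 members, the libraries lay wholly above those of the other group for 1 member and wholly below for 6 with VP64-MyoD against untreated cells (43.2% and 40% of tested genes), and for 3 and 2 members with WT-MyoD against untreated cells (36.2% and 35.2%). Between VP64-MyoD and WT-MyoD it was 2 and 5 members (39.9% and 38.3%). ACKR3, picked for its fall, adds to the members below untreated cells in both comparisons and to those above WT-MyoD. CXCL3, below untreated cells with VP64-MyoD, did not pass the filter. CXCL8, counted above untreated cells with WT-MyoD and below WT-MyoD with VP64-MyoD, passed it through the WT-MyoD libraries alone. With so few members and so many genes called, these shares are a description of the list only.

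**Figure D1:**
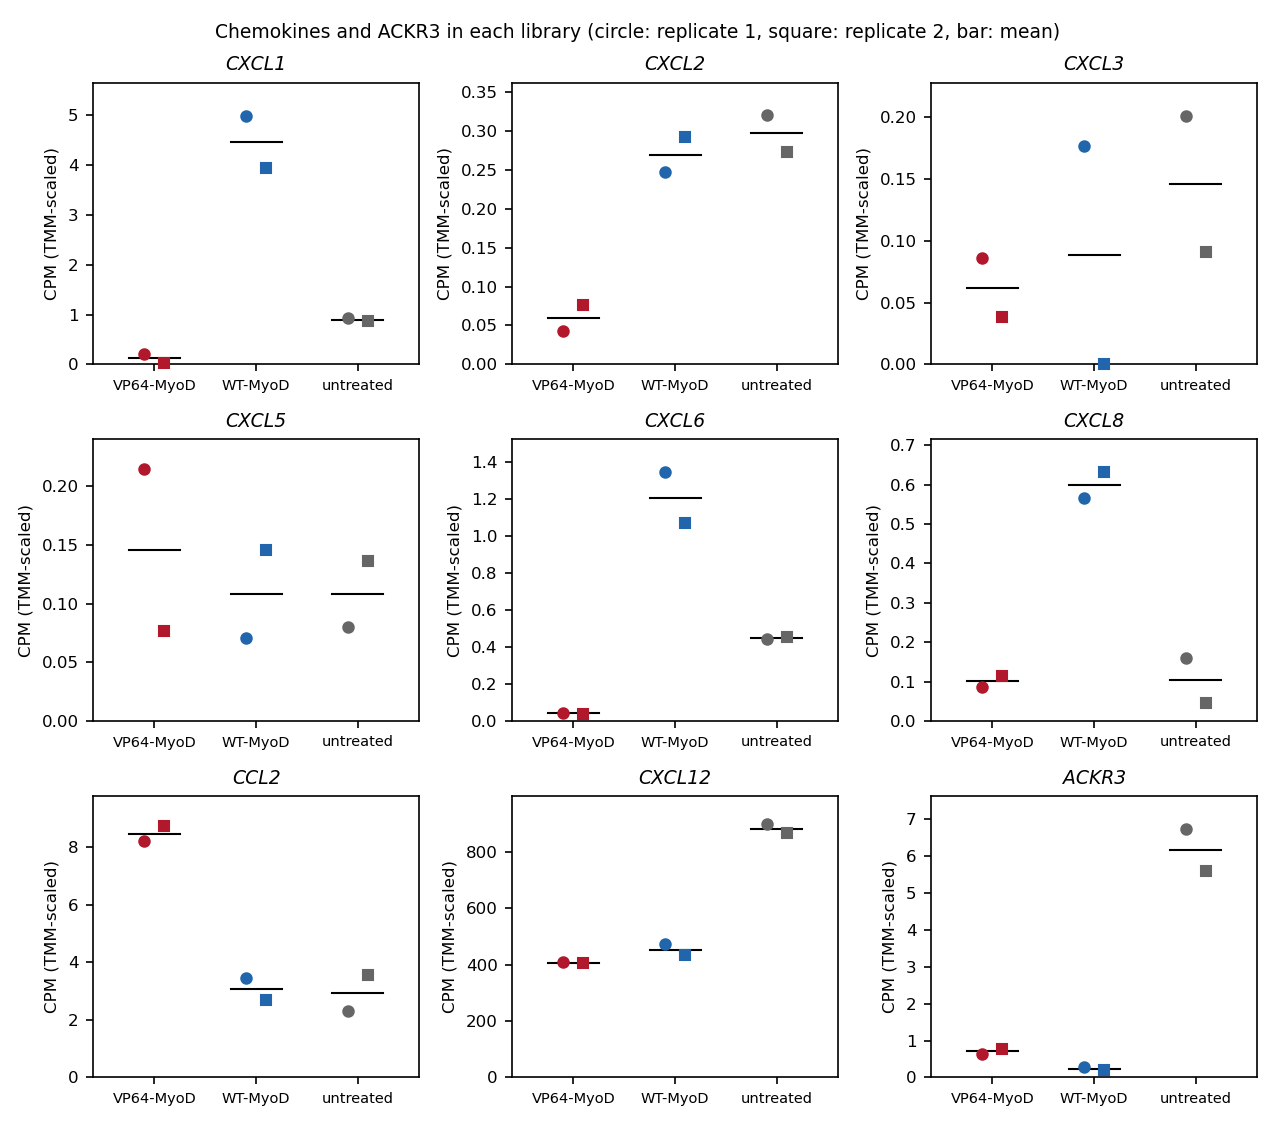
Level of each of the 9 genes in each library, in CPM scaled by TMM, with VP64-MyoD, WT-MyoD and untreated cells from left to right; circles are replicate 1, squares replicate 2 and bars the mean of 2 libraries, and each panel has its own axis from 0. CXCL1, CXCL6 and CXCL8 stood highest in the WT-MyoD libraries, CCL2 in the VP64-MyoD libraries, and CXCL12 and ACKR3 in the untreated libraries.

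CXCL1 was the most abundant of the ELR ligands in WT-MyoD cells. It had 10 and 2 counts (0.215 and 0.0382 CPM) in the VP64-MyoD libraries, 282 and 162 counts (4.98 and 3.94 CPM) in the WT-MyoD libraries, and 46 and 38 counts (0.922 and 0.863 CPM) in the untreated libraries. No library of one group overlapped those of another. CXCL1 rose with WT-MyoD against untreated cells (log2 change 2.32, SE 0.27, edgeR adjusted p = 3.17e-06) and fell with VP64-MyoD against untreated cells (log2 change -2.85, SE 0.47, edgeR adjusted p = 8.44e-05). With VP64-MyoD it was also far below WT-MyoD (log2 change -5.17, SE 0.38, edgeR adjusted p = 1.46e-08). The size of the VP64-MyoD change rested on 6 read pairs, and without either VP64-MyoD library it was -4.46 or -2.05 against untreated cells and -6.78 or -4.37 against WT-MyoD, with each call kept.

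CXCL6, a ligand of both CXCR1 and CXCR2, followed the same order of groups. It had 2 and 2 counts in the VP64-MyoD libraries, 76 and 44 in the WT-MyoD libraries and 22 and 20 in the untreated libraries, which is 0.0430 and 0.0382 CPM, 1.34 and 1.07 CPM, and 0.441 and 0.454 CPM in the same order of groups. Again the groups did not overlap. CXCL6 rose with WT-MyoD against untreated cells (log2 change 1.43, SE 0.37, edgeR adjusted p = 0.0043), but without WT-MyoD replicate 1 the edgeR adjusted p was 0.0505 at a log2 fold change of 1.25. CXCL6 fell with VP64-MyoD against untreated cells (log2 change -3.39, SE 0.64, edgeR adjusted p = 2.64e-04). Only 2 read pairs were seen with VP64-MyoD against 21 in untreated cells, a ratio of 0.0904 with an exact 95% counting interval of 0.0103 to 0.370. Set against WT-MyoD, the 2 read pairs stood against 60, a ratio of 0.0329 with an interval of 0.0039 to 0.124. The log2 change in that comparison was -4.82 (SE 0.55, edgeR adjusted p = 2.32e-06). These intervals cover counting error only. No VP64-MyoD library reached the filter level for CXCL6, which entered the fit through the WT-MyoD and untreated libraries, where it was higher.

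CXCL8, or interleukin-8, the best known neutrophil attractant, was near the limit of detection outside the WT-MyoD group. It had 4 and 6 counts (0.0860 and 0.114 CPM) in the VP64-MyoD libraries, 32 and 26 counts (0.565 and 0.632 CPM) in the WT-MyoD libraries, and 8 and 2 counts (0.160 and 0.0454 CPM) in the untreated libraries. The WT-MyoD libraries lay above all the others, and the VP64-MyoD and untreated libraries overlapped. CXCL8 passed the filter on low counts through the WT-MyoD libraries alone, so it could enter a test only by being high there, and it was not tested. Pooled over each group, 29 read pairs were seen with WT-MyoD against 5 in untreated cells, a ratio of 5.57 with an exact 95% counting interval of 2.13 to 18.4. The 5 read pairs with VP64-MyoD stood against 29 with WT-MyoD, a ratio of 0.170 (interval 0.0515 to 0.445), and against 5 in untreated cells, a ratio of 0.949 (interval 0.218 to 4.12). At this depth a difference between VP64-MyoD and untreated cells in either direction was not detectable, and the fitted log2 value changed sign depending on which library was left out (-0.66 to 1.104).

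CXCL2, a close relative of CXCL1, had 2 and 4 counts in the VP64-MyoD libraries, 14 and 12 in the WT-MyoD libraries and 16 and 12 in the untreated libraries. The VP64-MyoD libraries were the lowest, and the WT-MyoD and untreated libraries overlapped. With VP64-MyoD, CXCL2 was lower than in untreated cells (log2 change -2.25, SE 0.69, edgeR adjusted p = 0.0104) and lower than with WT-MyoD (-2.10, SE 0.70, edgeR adjusted p = 0.0191). The call against untreated cells ended without either VP64-MyoD library or without untreated replicate 1, and the call against WT-MyoD ended without either VP64-MyoD library or without WT-MyoD replicate 2. With WT-MyoD against untreated cells the log2 fold change was -0.15 (95% interval -1.21 to 0.90, edgeR adjusted p = 0.839). The filter and test used counts in which 1 read pair counts as 2, and with halved counts CXCL2 did not pass the filter. No VP64-MyoD library reached the filter level for CXCL2 either, and it entered the fit through the other groups, where it was higher.

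CXCL3 and CXCL5 did not pass the filter. CXCL3 had 4 and 2 counts with VP64-MyoD, 10 and 0 with WT-MyoD and 10 and 4 in untreated cells. CXCL5, an ELR ligand close to CXCL6, had 10 and 4 counts with VP64-MyoD, 4 and 6 with WT-MyoD and 4 and 6 in untreated cells. A floor of 3 read pairs, the level that a count of 0 allows, corresponded to 0.106 to 0.146 CPM per library, and most of these values lie at or close to it. In a fit with no filter, neither gene was called in any of the 3 comparisons. CXCL1, CXCL2 and CXCL3 have near-identical sequences, as do CXCL5 and CXCL6, so reads may have been split between copies and the low values are uncertain. CXCL6 also overlaps the pseudogene PPBPP1, which has no row of its own in the count table.

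Summed over the 6 ELR ligands, the level was 0.688 and 0.382 CPM in the VP64-MyoD libraries, 7.38 and 6.08 CPM in the WT-MyoD libraries, and 2.13 and 1.86 CPM in the untreated libraries. Markers of leukocytes, which also make these ligands, were measured beside them. The sum of 8 leukocyte markers was 47.1 to 48.5 CPM with VP64-MyoD, 178 to 182 CPM with WT-MyoD and 69.4 to 71.1 CPM in untreated cells. Nearly all of it was CD68, a lysosomal protein that fibroblasts also express. Without CD68 the sum was 3.78 to 4.17 CPM, 3.50 to 4.33 CPM and 3.37 to 3.54 CPM in the same order of groups. The T cell marker CD3E was at 0 in every library, and the B cell marker MS4A1 was at 0 in all but VP64-MyoD replicate 1. CD14 had the order of CXCL1 and CXCL6, at 0.267 CPM with VP64-MyoD, 1.62 CPM with WT-MyoD and 0.659 CPM in untreated cells. CD68 (43.8, 176 and 66.8 CPM in the same order of groups) and LYZ (0.800, 1.12 and 0.966 CPM) averaged in that order too. The LYZ libraries overlapped between groups. PTPRC (1.59, 0.930 and 1.25 CPM), CSF1R (0.845, 0.197 and 0.536 CPM) and ITGAM (0.449, 0.0530 and 0.0428 CPM) averaged highest with VP64-MyoD. The part of these markers in the result was not tested.

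**Figure D2:**
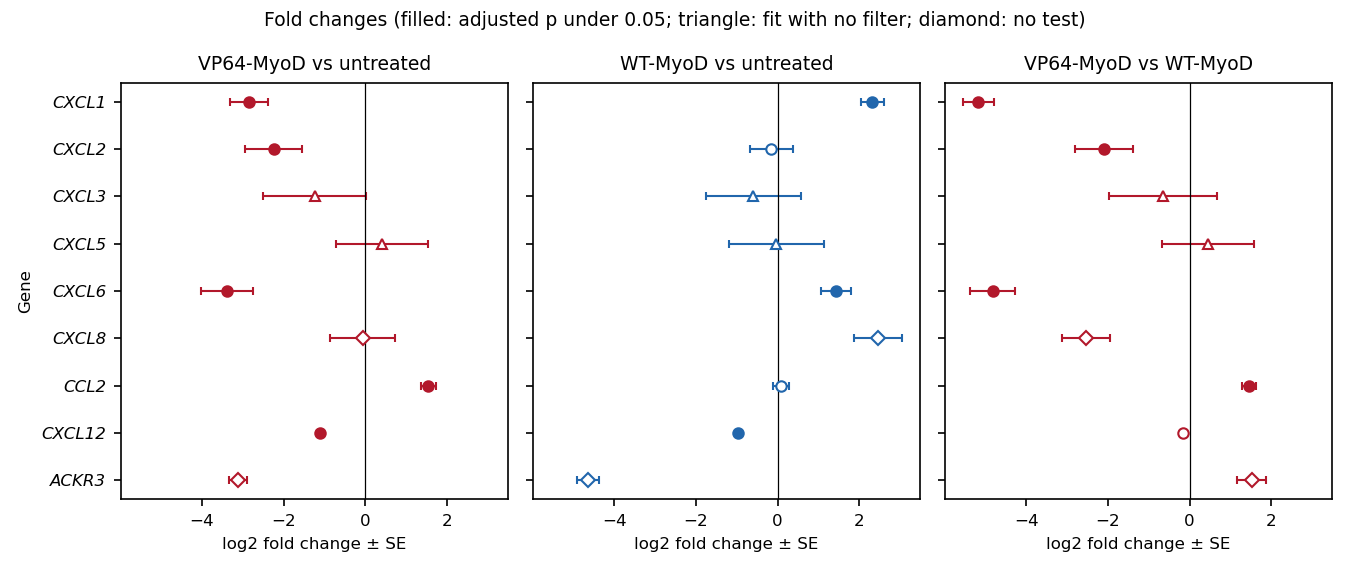
Log2 fold change of each of the 9 genes in the 3 comparisons, with VP64-MyoD against untreated, WT-MyoD against untreated and VP64-MyoD against WT-MyoD; bars are standard errors from edgeR, filled circles have an adjusted p under 0.05, open circles do not, triangles come from the fit with no filter, and diamonds mark ACKR3 and CXCL8, which were not tested. CXCL1 and CXCL6 lie on opposite sides of 0 in the first 2 comparisons, at -2.85 and 2.32 for CXCL1.

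CCL2 was higher with VP64-MyoD and not with WT-MyoD. It had 382 and 458 counts (8.21 and 8.74 CPM) in the VP64-MyoD libraries, 196 and 110 counts (3.46 and 2.68 CPM) in the WT-MyoD libraries, and 116 and 156 counts (2.33 and 3.54 CPM) in the untreated libraries. The VP64-MyoD libraries lay above all the others, and the WT-MyoD and untreated libraries overlapped. CCL2 rose with VP64-MyoD against untreated cells (log2 change 1.54, SE 0.18, edgeR adjusted p = 2.26e-06) and was higher than with WT-MyoD (1.45, SE 0.18, edgeR adjusted p = 5.11e-06). With WT-MyoD against untreated cells the log2 fold change was 0.09 (95% interval -0.31 to 0.48, edgeR adjusted p = 0.750). With VP64-MyoD, CCL2 was thus called in the direction opposite to CXCL1 and CXCL6. The summed markers of 2 other cell types were also highest with VP64-MyoD, though not every marker was. The sum of 6 endothelial markers was 19.6 to 21.3 CPM with VP64-MyoD, 9.0 to 9.43 CPM with WT-MyoD and 11.4 to 11.6 CPM in untreated cells, led by TEK and CLDN5, while CDH5 was at or under 0.438 CPM in every library. CLDN5 averaged 9.28, 0.820 and 0 CPM in the same order of groups, whereas TEK was highest in untreated cells (9.48, 6.60 and 10.5 CPM), and CDH5, VWF and KDR averaged highest with WT-MyoD. The sum of 6 keratinocyte markers was 17.8 to 18.1, 7.59 to 8.76 and 5.81 to 6.32 CPM in the same order of groups, led by KRT10 and TP63, with KRT1 at 0 in every library, KRT5 at 0 outside VP64-MyoD and KRT14 highest with WT-MyoD. Their part in the result was not tested.

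CXCL12 held nearly all counts of the list, with 97.6% to 98.8% of the counts of the 9 genes in each library. It had 19016 and 21252 counts (408.7 and 405.5 CPM) in the VP64-MyoD libraries, 26712 and 17902 counts (471.7 and 435.5 CPM) in the WT-MyoD libraries, and 44860 and 38110 counts (899.3 and 865.9 CPM) in the untreated libraries. All 4 MyoD libraries lay below both untreated libraries. CXCL12 fell to 0.461 of the untreated level with VP64-MyoD (log2 change -1.12, SE 0.07, edgeR adjusted p = 8.22e-10) and to 0.514 of it with WT-MyoD (log2 change -0.96, SE 0.07, edgeR adjusted p = 6.09e-09). Between VP64-MyoD and WT-MyoD the log2 fold change was -0.16 (95% interval -0.29 to -0.02, edgeR adjusted p = 0.0563), which passed the threshold under several alternatives. The sum of the 9 fibroblast markers was 30874 to 33457 CPM with VP64-MyoD, 29633 to 33825 CPM with WT-MyoD and 43071 to 45474 CPM in untreated cells. Most of that sum was COL1A1 and COL1A2. PDGFRB averaged 789 CPM with VP64-MyoD, 778 CPM with WT-MyoD and 1675 CPM in untreated cells. COL3A1 (3609, 5550 and 5795 CPM in the same order of groups) and PDGFRA (344, 655 and 663 CPM) also averaged highest in untreated cells. For both, the WT-MyoD and untreated libraries overlapped. The remaining markers had other orders. VIM averaged 2515, 2790 and 1962 CPM and LUM 477, 582 and 398 CPM in the same order of groups, both lowest in untreated cells, while DCN (375, 1543 and 975 CPM) and THY1 (565, 695 and 601 CPM) were highest with WT-MyoD and lowest with VP64-MyoD. The part of this difference in the CXCL12 result was not tested.

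CXCL12 was counted on 4 RefSeq rows, whose proteins differ at the C-terminus, and the rows did not change alike. The row of the beta form (NM_000609) took 33.7% and 33.3% of the CXCL12 counts in the VP64-MyoD libraries, 20.3% and 21.6% in the WT-MyoD libraries, and 34.9% and 35.0% in the untreated libraries. The row of the alpha form (NM_199168) took 53.3% and 52.6% with VP64-MyoD, 65.5% and 64.1% with WT-MyoD, and 52.4% and 53.1% in untreated cells. For the beta and alpha rows only the WT-MyoD libraries stood apart, and the VP64-MyoD shares lay within 2 percentage points of the untreated ones. With WT-MyoD against untreated cells the log2 change was -1.70 (SE 0.06) for the beta row and -0.66 (SE 0.07) for the alpha row. A test of transcript usage, added after these shares were seen, gave a usage change of the beta row of -0.51 on the log2 scale with WT-MyoD against untreated cells (edgeR adjusted p = 2.87e-06), a call made for 0.0534% of rows. Between VP64-MyoD and WT-MyoD the usage change was 0.47 (edgeR adjusted p = 5.68e-06), a call made for 0.187% of rows, and between VP64-MyoD and untreated cells it was -0.04 (edgeR adjusted p = 0.9999), with 0.256% of rows called. How reads were divided among rows that share exons is not given in the sources used here, so the shares are those of the deposited counts. The rows of the delta form (NM_001178134) and gamma form (NM_001033886) held 10.4% to 12.8% and 1.24% to 1.68% of the counts in all libraries. The delta row took 11.8% and 12.6% with VP64-MyoD, 12.7% and 12.8% with WT-MyoD, and 10.9% and 10.4% in untreated cells. No usage change was called for it. Over untreated cells, the authors' deposited table lists the beta row at -1.18 with VP64-MyoD and -1.70 with WT-MyoD on the log2 scale, and the alpha row at -1.11 and -0.66.

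**Figure D3:**
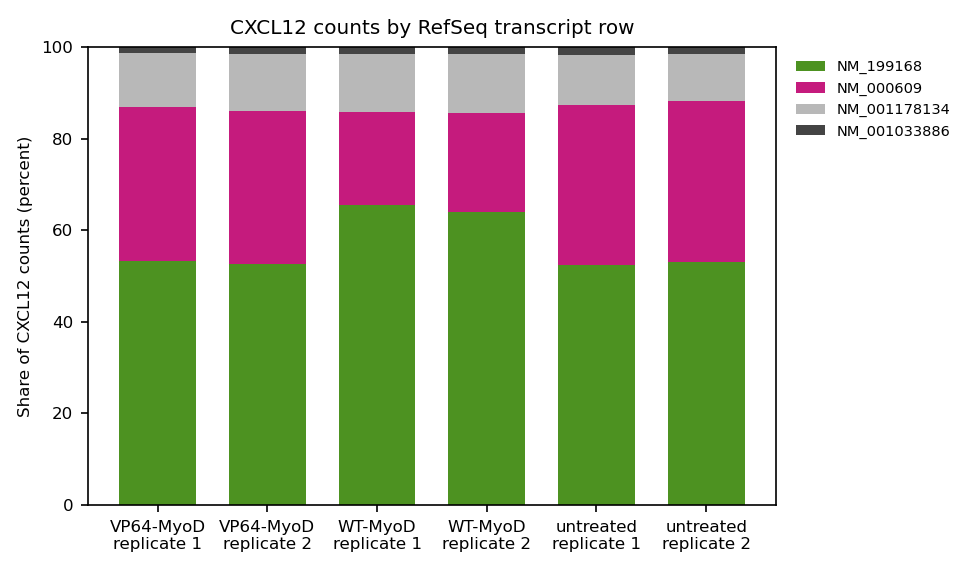
Share of CXCL12 counts, in percent, on each of its 4 RefSeq rows in each of the 6 libraries, with VP64-MyoD, WT-MyoD and untreated from left to right. The beta row (NM_000609) takes 20.3% and 21.6% in the WT-MyoD libraries, against 33.3% to 35.0% in the other 4 libraries.

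Of the receptors that share CXCL12, ACKR3 was highest in untreated cells and CXCR4 was at 0 there. ACKR3 had 30 and 40 counts (0.645 and 0.763 CPM) in the VP64-MyoD libraries, 16 and 8 counts (0.283 and 0.195 CPM) in the WT-MyoD libraries, and 336 and 246 counts (6.74 and 5.59 CPM) in the untreated libraries. The untreated libraries lay far above the others, and the WT-MyoD libraries below those with VP64-MyoD. The log2 fold changes over untreated cells were -3.12 (SE 0.22) with VP64-MyoD and -4.64 (SE 0.27) with WT-MyoD, and 1.52 (SE 0.35) between VP64-MyoD and WT-MyoD. In the authors' deposited table the values over untreated cells were -3.13 and -4.69. ACKR3 ranked 89th from the lowest of 15778 fold changes with VP64-MyoD and 15th from the lowest with WT-MyoD, the low values for which it was picked. CXCR4 had 678 and 766 counts in the VP64-MyoD libraries, 586 and 318 in the WT-MyoD libraries and 0 in both untreated libraries. With the untreated group at its floor of 3 read pairs, CXCR4 was at least 228-fold higher with VP64-MyoD and at least 145-fold higher with WT-MyoD. CXCR4 passed the filter on low counts through the MyoD libraries alone, so it could only come out higher than in untreated cells. No p-value is given for these values. VP64-MyoD cells also had more CXCR4 than WT-MyoD cells (log2 change 0.68, SE 0.13, edgeR adjusted p = 4.95e-04).

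**Figure D4:**
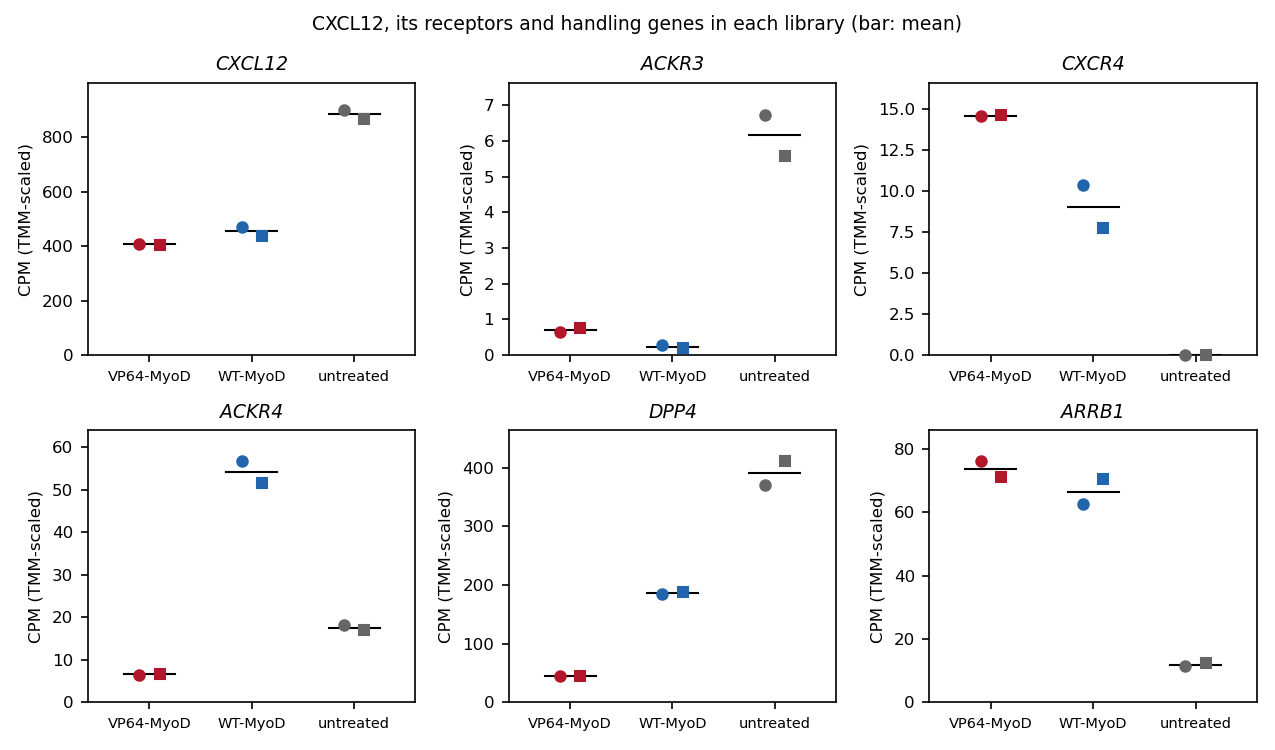
Level of CXCL12, its receptors ACKR3 and CXCR4, the scavenger ACKR4, the peptidase DPP4 and the arrestin ARRB1 in each library, in CPM scaled by TMM, with VP64-MyoD, WT-MyoD and untreated cells from left to right; circles are replicate 1, squares replicate 2 and bars the mean. CXCL12 and ACKR3 stood highest in the untreated libraries, where CXCR4 was at 0.

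Per length of transcript, CXCL12 stood highest in every group, at 115 CPM per kilobase with VP64-MyoD, 128 CPM per kilobase with WT-MyoD and 249.9 CPM per kilobase in untreated cells, using its longest row. CCL2 followed, at 11.4, 4.14 and 3.96 CPM per kilobase in the same order of groups. In untreated cells ACKR3 came next at 2.80 CPM per kilobase and CXCL1 at 0.814 CPM per kilobase. With WT-MyoD, CXCL1 at 4.54 and 3.59 CPM per kilobase overlapped CCL2 at 4.67 and 3.61 CPM per kilobase. With VP64-MyoD, the other ELR ligands averaged at or under 0.0588 CPM per kilobase, below CXCL1 at 0.115 and ACKR3 at 0.320 CPM per kilobase. The VP64-MyoD libraries had CXCL1 at 0.196 and 0.0348 CPM per kilobase, and in replicate 2 it lay below CXCL2, CXCL3 and CXCL8.

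The genes whose pattern over the 6 libraries was most like that of ACKR3 were PRR15, IL6 and SYBU, with root mean square differences of 0.17, 0.21 and 0.22 on log2(CPM + 0.5), centred per gene. The added 0.5 CPM is of the size of ACKR3 in the MyoD libraries and shrinks its differences, and on log2 CPM with nothing added the same 3 genes differed from ACKR3 by 0.62, 0.52 and 0.69. IL6, an inflammatory cytokine, had 3.36 CPM with VP64-MyoD, 1.60 CPM with WT-MyoD and 20.6 CPM in untreated cells. For CXCL12 they were CMKLR2, NAB1 and MORN4 (0.03, 0.04 and 0.05), and CMKLR2, a receptor of the chemoattractant chemerin, had 12.4, 13.9 and 28.3 CPM in the same order of groups. No genes are given for CXCL8, whose levels are near the added value. For CCL2 they were TOX2, LIMS3 and CAP2 (0.12, 0.14 and 0.15). LIMS3 has near-identical copies in the genome, so its value is uncertain.

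Few other chemokines could be tested. Of 36 further ligands, 18 had no count in any library and 3 passed the filter, CCL5, CCL22 and CXCL16. CXCL16, the membrane-anchored ligand of CXCR6, averaged 2.01 ± 0.63 CPM with VP64-MyoD, 3.10 ± 0.46 CPM with WT-MyoD and 4.42 ± 0.27 CPM in untreated cells (SD, n = 2 each). It was called lower in all 3 comparisons, with log2 fold changes of -1.15 with VP64-MyoD and -0.50 with WT-MyoD against untreated cells (edgeR adjusted p = 1.84e-04 and 0.0475) and -0.65 between VP64-MyoD and WT-MyoD (edgeR adjusted p = 0.0180). The call with WT-MyoD ended in DESeq2, with library totals, with a stricter filter, and without WT-MyoD replicate 2 or either untreated library. The call between the MyoD groups ended without VP64-MyoD replicate 2 or WT-MyoD replicate 1.

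Of 22 chemokine receptors other than ACKR3, 9 passed the filter. With VP64-MyoD against untreated cells CXCR4 and ACKR2 were higher, and 3 were lower, ACKR4, CCR10 and CX3CR1, the last named after its values were seen. With WT-MyoD 4 were higher, CXCR4, ACKR4, ACKR2 and CCR7. CXCR4 and ACKR2 passed the filter through the MyoD libraries alone, so they entered these comparisons by being high there. CCR10 and CX3CR1 did not pass it through the VP64-MyoD libraries. Beside these counts, 33% of all genes were higher and 30% lower with VP64-MyoD, and 25.7% and 22.2% with WT-MyoD. The receptor counts are a description with no test. With WT-MyoD, 2 receptors were called higher in DESeq2, with a stricter filter, or without WT-MyoD replicate 1, untreated replicate 1 or either VP64-MyoD library. With VP64-MyoD, 1 was called lower when either VP64-MyoD library was left out, and 1 higher and 1 lower under the stricter filter. ACKR4, the scavenger of CCL19, CCL21 and CCL25, split the MyoD forms as CXCL1 did. It averaged 6.57 ± 0.11 CPM with VP64-MyoD, 54.1 ± 3.6 CPM with WT-MyoD and 17.5 ± 0.8 CPM in untreated cells (SD, n = 2 each), with log2 fold changes over untreated cells of -1.41 and 1.63 (edgeR adjusted p = 2.45e-09 and 1.10e-10).

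Of 14 listed partners of ACKR3, 13 were tested, of which 8 were higher and 3 lower with VP64-MyoD, and 8 were higher and 4 lower with WT-MyoD, against untreated cells. CXCR4 and RAMP2, both among those higher, passed the filter through the MyoD libraries alone. Over all genes, 33% were higher and 30% lower with VP64-MyoD and 25.7% higher and 22.2% lower with WT-MyoD, the shares beside which this and the following lists stand as descriptions with no test. The median log2 fold changes of the partners were 0.71 and 0.64, against 0.03 and 0 over all genes. ARRB1, the arrestin that ACKR3 recruits, averaged 73.7 CPM with VP64-MyoD, 66.6 CPM with WT-MyoD and 11.9 CPM in untreated cells (log2 fold changes over untreated 2.63 and 2.48). Adrenomedullin (ADM), a peptide that ACKR3 also scavenges, went the other way at 30.5 CPM with VP64-MyoD, 109 CPM with WT-MyoD and 197 CPM in untreated cells (-2.70 and -0.86).

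Of 20 enzymes and proteoglycans that cut or hold chemokines, 5 were higher and 14 lower with VP64-MyoD, and 5 were higher and 10 lower with WT-MyoD (33% and 30% of all genes with VP64-MyoD, 25.7% and 22.2% with WT-MyoD), with median log2 fold changes of -0.44 and -0.22. DPP4, the peptidase that inactivates CXCL12 by trimming its N-terminus, averaged 45.0 ± 0.6 CPM with VP64-MyoD, 187 ± 2 CPM with WT-MyoD and 391 ± 29 CPM in untreated cells (SD, n = 2 each). Its log2 fold changes over untreated cells were -3.12 and -1.07 (edgeR adjusted p = 6.14e-15 and 1.52e-09). NDST1, which sulfates heparan chains, and the heparan sulfate proteoglycan SDC4 were lower in both MyoD groups, with log2 changes of -1.57 and -1.82 with VP64-MyoD and of -1.17 and -0.83 with WT-MyoD. MMP1, a collagenase that can also cut CXCL12, and the proteoglycan GPC1 were higher in both, with log2 changes of 3.70 and 1.37 with VP64-MyoD and of 2.40 and 1.47 with WT-MyoD.

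**Figure D5:**
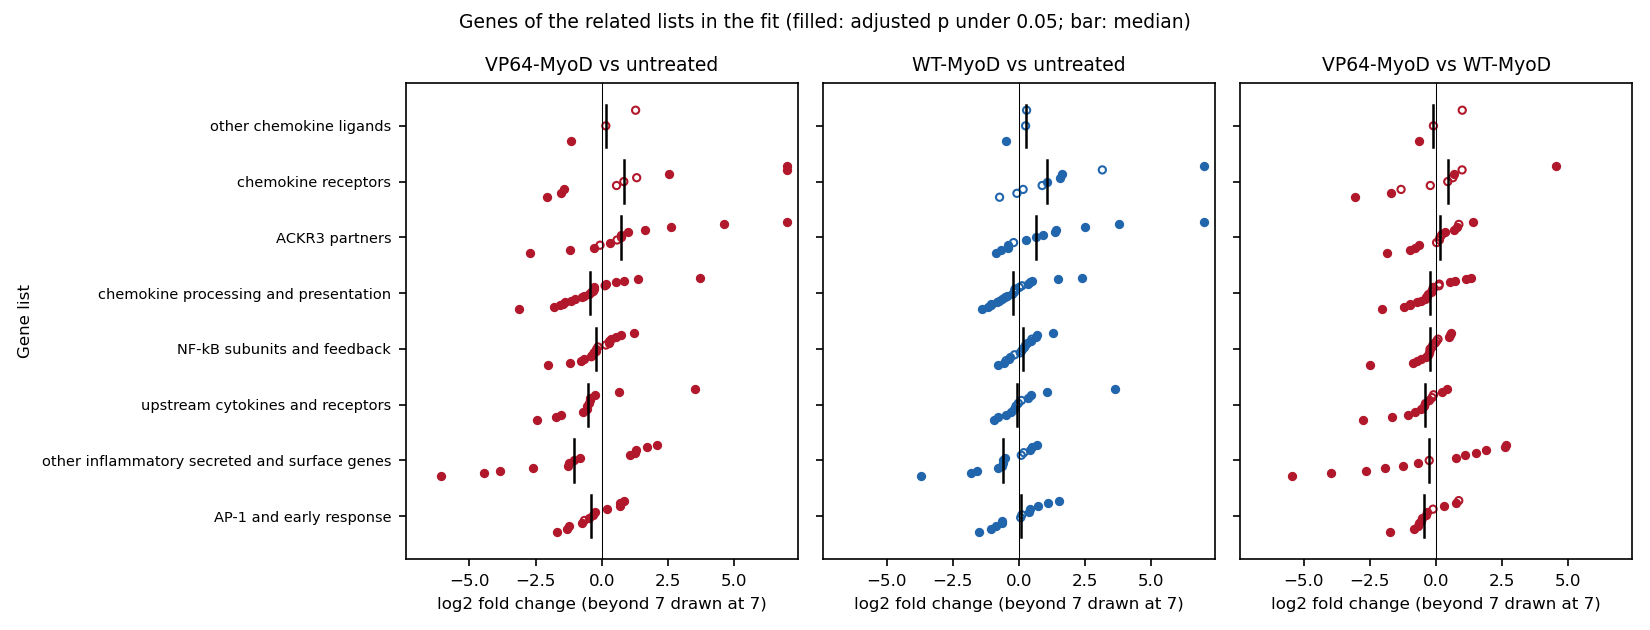
Log2 fold change of every tested gene of the related gene lists in the 3 comparisons, 1 point per gene (filled where the edgeR adjusted p is under 0.05), a bar at the median of each list, and values beyond 7 drawn at 7. The upstream cytokine and receptor list has 10 of 12 genes lower with VP64-MyoD against untreated cells.

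Genes upstream of the ELR ligands were followed too. The list held 12 tested cytokines, receptors and adaptors of the interleukin-1, interleukin-17, tumour necrosis factor and Toll-like pathways. Of these, 2 were higher and 10 lower with VP64-MyoD, and 4 were higher and 5 lower with WT-MyoD (3 lower with library totals). The interleukin-17 receptor genes IL17RA and IL17RC were among those lower with VP64-MyoD. Of all genes, 33% were higher and 30% lower with VP64-MyoD, and 25.7% and 22.2% with WT-MyoD. The median log2 fold changes were -0.52 and -0.06. Between the MyoD forms 8 were lower with VP64-MyoD and 2 higher (1 higher in DESeq2, in the fit of 2 groups alone, or without WT-MyoD replicate 1, untreated replicate 2 or either VP64-MyoD library), where 28.2% of all genes were lower and 28.4% higher. The receptor TNFRSF1B averaged 1.36 ± 0.40 CPM with VP64-MyoD, 9.31 ± 0.33 CPM with WT-MyoD and 4.48 ± 0.30 CPM in untreated cells (SD, n = 2 each), the order seen for CXCL1 and CXCL6. Its log2 fold changes over untreated cells were -1.71 and 1.05 (edgeR adjusted p = 9.81e-07 and 2.79e-05). The lipopolysaccharide receptor TLR4 and the interleukin-1 receptor IL1R1 were lower in both MyoD groups, with log2 changes of -2.44 and -1.53 with VP64-MyoD and of -0.77 and -0.47 with WT-MyoD. IL1B, a cytokine that induces these ligands, averaged 1.27 and 1.35 CPM for VP64-MyoD and WT-MyoD, against 0.103 CPM in untreated cells. IL1B passed the filter on low counts through the MyoD libraries alone, so no p-value against untreated cells is given. It is among the genes counted as higher in both MyoD groups.

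Of 17 NF-κB subunits, kinases and feedback inhibitors, 6 were higher and 7 lower with VP64-MyoD, and 7 were higher and 4 lower with WT-MyoD (2 lower with library totals), beside 33% higher and 30% lower of all genes with VP64-MyoD and 25.7% and 22.2% with WT-MyoD. The median log2 fold changes were -0.22 and 0.16. The survival gene BIRC3 had 0.344 CPM with VP64-MyoD, 1.96 CPM with WT-MyoD and 1.41 CPM in untreated cells, and fell with VP64-MyoD (log2 change -2.02, SE 0.33, edgeR adjusted p = 6.54e-05), while with WT-MyoD the value was 0.49 (edgeR adjusted p = 0.137). The inhibitor TNFAIP3 was higher in both groups, at 10.6 and 15.7 CPM for VP64-MyoD and WT-MyoD, against 6.40 CPM in untreated cells. TNIP1, of the same list, was higher in both too, at 274 and 186 CPM against 117 CPM. Its log2 fold changes over untreated cells were 1.23 and 0.68 (edgeR adjusted p = 2.16e-10 and 3.69e-07).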

How the data were processed

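Polyadenylated RNA of 6 libraries in 3 groups was analysed. The deposited count table gives raw read counts for each RefSeq transcript in each library. Tools named in the submitters' processing notes are CASAVA, Bowtie 0.12.9 and DESeq 1.10.1, with genome build hg19. A second deposited table, made by the authors, holds each group's mean signal (counts over size factors), its fold changes as ratios and on the log2 scale, and p-values, per the file headers, and here only its log2 fold changes were set beside those computed. How reads were assigned to transcripts is not given in the sources used here. Tagmentation libraries do not mark the strand.

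Of 40710 rows, 39324 were matched to a symbol through RefSeq and 517 through GENCODE 29. The 868 rows without a symbol held 0.601% to 0.744% of counts and kept their own identifier, and 1 row was the transgene. Rows were summed per gene and tested in edgeR 4.0.16 (R 4.3.3) after TMM scaling and filterByExpr (minimum count 10, minimum total 15), 6 libraries in 1 fit with 3 residual degrees of freedom, and the two-sided quasi-likelihood test. Adjusted p-values (Benjamini-Hochberg over 15778 genes) under 0.05 were calls, and standard errors come from the F statistic. On simulated counts for VP64-MyoD against untreated (15550 genes), 92.8% of genes changed by 1 and 94% of those changed by 2 on the log2 scale were recovered, with 5 false calls.

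Libraries of one group differed by more than counting noise (chi-square per degree of freedom 5.63 with VP64-MyoD, 12.9 with WT-MyoD and 3.29 in untreated cells). Levels are TMM-scaled CPM, and exact intervals and the floor of 3 read pairs cover counting error only. Lengths for levels between genes come from GENCODE 29. Alternatives were RLE size factors, library totals, DESeq2 1.42.0, limma-voom 3.58.1, a replicate block, other filters, halved counts, fits restricted to 2 groups and leaving out each library. Genes given with values from each list were taken from the called genes with the 4 smallest adjusted p per comparison. Not all of those genes are given. For 3 members the text names the 3 most alike genes with a mean of at least 5 CPM, on log2(CPM + 0.5). ACKR3, chosen for its fold change, and CXCL8, which passed the filter through 1 group alone, were not tested. The members and lists were chosen with earlier results of these data known. A listed receptor is not reported here.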

Additional observations from a re-analysis of the deposited data

How the results depend on the processing

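Of the member fold changes recomputed under the alternatives, 9 lost the call and 5 gained it, and no called value changed sign. Values not called did change sign under some alternatives: CCL2 with WT-MyoD against untreated cells lay between -0.20 and 0.41, and CXCL2 in that comparison between -0.26 and 0.02. The untested CXCL8 lay between -0.66 and 1.104 with VP64-MyoD and between 1.88 and 3.64 with WT-MyoD, against untreated cells, when single libraries were left out. Scaling by library totals alone moved the median log2 fold change of all genes to 0.22 with VP64-MyoD and 0.17 with WT-MyoD against untreated cells, and left 3125 and 1876 genes called lower. CXCL2 with VP64-MyoD lay between -2.72 and -1.93 against untreated cells and between -2.57 and -1.77 against WT-MyoD when single libraries were left out (adjusted p up to 0.103 and 0.151); against WT-MyoD it was -2.17 in DESeq2 (adjusted p 0.0524) and -2.10 with no filter (adjusted p 0.0587). CXCL6 with WT-MyoD against untreated cells lay between 1.25 and 1.59, and the untested ACKR3 between -4.97 and -4.42. CXCL12 between VP64-MyoD and WT-MyoD was -0.16 with RLE size factors, DESeq2, limma-voom and no filter, each past the threshold (adjusted p 0.0474, 0.0265, 0.0317 and 0.0414), and between -0.23 and -0.10 with single libraries left out. The cause of these changes was not tested. CXCL2 gave no value with a minimum of 1 CPM or halved counts, and CXCL8 gave none with a minimum of 1 CPM or, for VP64-MyoD against untreated, in the fit of 2 groups alone. Taking the shortest CXCL12 row in place of the longest gave 866 CPM per kilobase with VP64-MyoD, 965 with WT-MyoD and 1878 in untreated cells. Of the list counts, 688 stayed within 1.5 times and 32 moved.

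The labels do not say whether replicate numbers pair the samples, and no pairing was seen over all genes. Deviations of same-numbered libraries correlated at 0.0071 to 0.0316, a measure that cannot show a pairing limited to some genes. With the replicate number as a block, 9905, 7531 and 8893 genes were called with VP64-MyoD and with WT-MyoD against untreated cells and between the MyoD forms, and no call of a member changed. Values under about 10 counts, as for most ELR ligands with VP64-MyoD, are limited by depth.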

Other observations

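Among other inflammatory genes, 13 of 15 were tested, of which 5 were higher and 8 lower with VP64-MyoD, and 3 were higher and 8 lower with WT-MyoD, against untreated cells (over all genes, 33% and 30% with VP64-MyoD, 25.7% and 22.2% with WT-MyoD). The median log2 fold changes were -1.03 and -0.60. Complement component C3 averaged 0.468 CPM with VP64-MyoD, 20.4 CPM with WT-MyoD and 31.4 CPM in untreated cells, with log2 fold changes of -6.07 and -0.63 (edgeR adjusted p = 5.25e-14 and 8.82e-05). The pattern recognition protein PTX3 averaged 14.6, 91.9 and 320.2 CPM in the same order of groups. SOD2, a mitochondrial superoxide dismutase induced by NF-κB, split the MyoD forms at 50.3 CPM with VP64-MyoD, 190.1 CPM with WT-MyoD and 117.9 CPM in untreated cells (log2 fold changes -1.23 and 0.69, edgeR adjusted p = 1.94e-09 and 1.63e-06). IL11, a cytokine of the interleukin-6 family, went the other way, at 11.2 CPM with VP64-MyoD, 1.80 CPM with WT-MyoD and 5.39 CPM in untreated cells.

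Of 12 AP-1 and early response genes, 4 were higher and 7 lower with VP64-MyoD, and 5 were higher and 5 lower with WT-MyoD, beside the same shares of all genes. ZFP36, which promotes decay of cytokine and chemokine messages, averaged 16.2 CPM with VP64-MyoD, 53.6 CPM with WT-MyoD and 40.0 CPM in untreated cells (log2 fold changes -1.31 and 0.42, edgeR adjusted p = 9.10e-10 and 2.08e-04). The AP-1 subunit FOSL1 was higher in both groups, at 47.6 and 85.0 CPM for VP64-MyoD and WT-MyoD, against 29.6 CPM in untreated cells.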
